A study of Arabidopsis thaliana with 6 samples.

Results

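The comparison set roots of an Arabidopsis thaliana rxr1 mutant against wild-type roots, 2 Affymetrix ATH1 arrays on each side, and so used 4 of the 6 arrays of the series. The members were all arrays that the sample titles assign to the mutant or to wild type, and every probe set of the array except the manufacturer's controls was compared. Seedlings of both genotypes were 7 days old and had grown upright on solid half-strength MS medium, and total root RNA was hybridised. The remaining arrays came from an RXR1 overexpressor, which entered the fit only through the estimate of spread. The labels name the mutated gene but give no allele, no line number, no ecotype and no number of plants per array. Whether replicates were grown apart is not stated, so the p-values rest on the spread of these arrays alone, part of which may be technical.

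RXR1 (AT3G25240) belongs to the DUF506 family of plant proteins, restrains the elongation of root hairs and is known to bind a small GTPase of the RAB family. Root hairs are tubular outgrowths of single epidermal cells that lengthen by secretion at their tip, a process that depends on small GTPases, calcium, phosphoinositide lipids and loosening of the cell wall. The comparison asks which root transcripts differ when RXR1 is mutated. RXR1 itself had no probe set under its locus in the platform annotation, so the mutation could not be checked at the transcript level.

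All values below are log2 of the deposited signal, and a difference is the mutant mean minus the wild-type mean on that scale, so that 1 is 2-fold. A probe set was called when its limma p, adjusted over 22746 probe sets by the Benjamini-Hochberg method, was under 0.05. The mutant arrays resembled each other more than the wild-type arrays did, with a replicate SD of 0.114 in the mutant and 0.191 in wild type. Wild type replicate 2 stood apart: in the authors' deposited table its correlation was 0.975 and 0.983 with the mutant arrays and 0.979 with wild type replicate 1, while wild type replicate 1 reached 0.997 and 0.995 with the mutant arrays. The actin control probe sets, whose 3' minus 5' signal reflects RNA integrity and labelling, gave 1.29 and 1.19 in the mutant arrays, against 1.39 and 1.40 in wild type. The GAPDH controls overlapped, at 0.36 and 0.15 in the mutant and 0.37 and 0.28 in wild type. The ubiquitin controls went the other way, at -0.03 and -0.01 in the mutant, against -0.10 and -0.04 in wild type. The part of RNA integrity and labelling in the differences below was not tested. Called genes, the widest separations and the medians of most gene lists are therefore given also against each wild-type array alone. A fit with 1 wild-type array holds no spread of wild type, the more variable group, so its adjusted p can be too small. Mutant replicate 1 also differed from the rest: 37 of its probe sets were over 2-fold from the mean of the other 5 arrays, against 36 in wild type replicate 2, 12 in mutant replicate 2 and 9 in wild type replicate 1.

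A single gene was called. SGP1 (AT5G54840), a gene for a small GTPase, had log2 signals of 5.34 and 4.66 in the mutant arrays, 9.18 and 9.03 in the overexpressor and 9.02 and 9.64 in wild type. Both mutant arrays thus lay far below every other array, with a gap of -3.68 to the nearest wild-type array, and the overexpressor arrays lay within the wild-type range. SGP1 fell by 4.33 ± 0.258 (SE, n = 2 per group), which is 20.1-fold, with an adjusted p of 0.0104. No detection calls were used here, so whether the mutant signals exceed background is unknown, and the true fall may be larger. Against wild type replicate 1 alone the difference was -4.02 (adjusted p = 0.00456), and against wild type replicate 2 alone it was -4.64 (adjusted p = 0.00214). The call was lost when the overexpressor arrays were left out (adjusted p = 0.142) and without mutant replicate 2 (-3.99, adjusted p = 0.0785). SGP1 was 0.0044% of the probe sets tested, and 0 probe sets were called higher in the mutant. Without adjustment, 1136 probe sets (4.99%) were higher and 986 (4.33%) lower at p under 0.05, together 9.33% of those tested.

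SGP1 is the plant counterpart of a yeast GTPase that starts a kinase cascade controlling the end of cell division, and related proteins of that cascade were measured beside it. Of 7 listed genes 4 were measured, and SGP1 was the only one called. The closest relative, SGP2, had 7.60 and 7.72 in the mutant, against 7.67 and 7.71 in wild type, and the groups overlapped. Of the MOB1 genes, which encode activators of the kinases, AT5G45550 (MOB1-like) differed by -0.02 ± 0.0846 and AT4G19045 by -0.14 ± 0.113, both with overlapping arrays.

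The genes beside SGP1 on the chromosome did not share its low signal. Of the 5 annotated genes on each side, 5 in all were measured, and their differences ran from -0.23 to 0.31 with 0 called. AT5G54830, the next gene on one side, had 8.10 and 8.11 in the mutant, against 7.69 and 7.91 in wild type. AT5G54850, the next on the other side, had 5.75 and 5.78 in the mutant, against 5.70 and 5.78 in wild type. Around RXR1 itself only 3 of 10 neighbours were measured, at 0.20 for AT3G25210, -0.23 for AT3G25260 and -0.26 for AT3G25280, with 0 called. The genes directly adjacent to RXR1 were not among them.

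**Figure D1:**
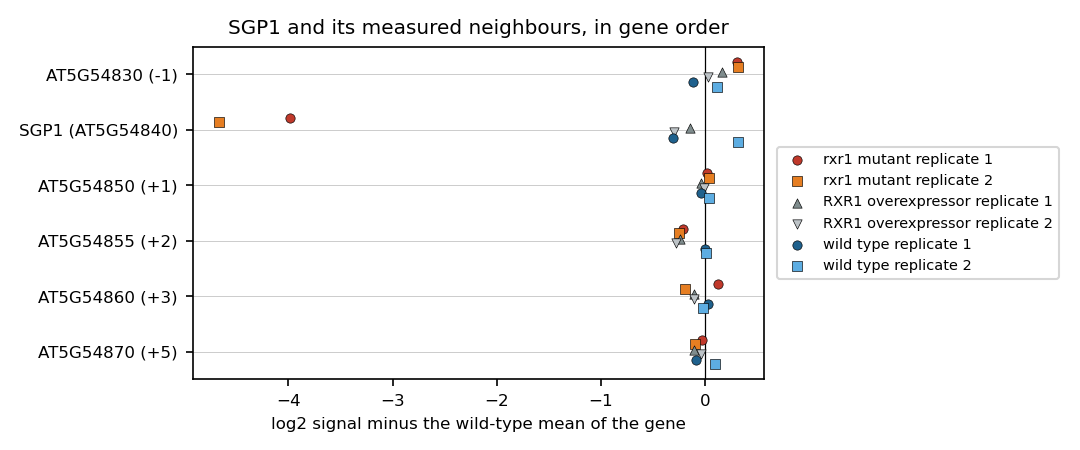
Log2 signal of SGP1 and of its 5 measured neighbours, in gene order from top to bottom, minus the wild-type mean of each gene. Each point is 1 array (2 of the rxr1 mutant, 2 of the RXR1 overexpressor, 2 of wild type). SGP1 in the mutant arrays lies about 4 log2 units below the wild-type mean, and all points of the neighbours lie near 0.

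The second widest separation among named genes was at AT5G24240, which encodes a phosphoinositide 4-kinase of the gamma class, enzymes that carry ubiquitin-like domains. It had 5.84 and 6.17 in the mutant, 5.70 and 5.77 in the overexpressor, and 7.38 and 7.78 in wild type. The gap between the nearest mutant and wild-type arrays was -1.22, and the difference was -1.58 ± 0.158 (2.98-fold), which did not pass (adjusted p = 0.198). It was -1.38 against wild type replicate 1 (adjusted p = 0.0535) and -1.77 against wild type replicate 2 (adjusted p = 0.00857). The mutant and overexpressor values share the same wild-type arrays.

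To name further genes without leaning on either wild-type array, genes with an unadjusted p under 0.01 (1.79% of probe sets) were ranked by the gap between the nearest mutant array and the nearest wild-type array. None of the genes in this and the next 2 paragraphs passed the adjusted test. Besides SGP1, the 14 genes with the widest gap below wild type differed by -1.58 to -0.54, with adjusted p from 0.198 to 0.524. Against wild type replicate 1 alone they were at -1.38 to -0.49, and against wild type replicate 2 alone at -1.77 to -0.55. Mutant replicate 1 was the lower of the mutant arrays in 11 of these 14. In 8 of these 14 both overexpressor arrays also lay below both wild-type arrays. In comparison, 19% of all probe sets had both mutant arrays below both wild-type arrays, and 19.1% had both above.

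AT2G22880, a VQ-motif protein, had 5.58 and 6.01 in the mutant, against 6.55 and 6.69 in wild type. AT1G16260, a wall-associated receptor-like kinase, had 4.98 and 5.14 in the mutant, against 5.60 and 5.67 in wild type. AT5G39580, a class III peroxidase, had 5.91 and 6.08 in the mutant, against 6.54 and 6.76 in wild type. In each of these genes the gap exceeded the difference between replicates, which the choice of genes by gap favours. AT3G02840, an ARM-repeat protein, had 3.64 and 3.94 in the mutant, against 4.39 and 4.41 in wild type, and whether signals this low exceed background is unknown. AT3G59080, an aspartyl protease, had 4.90 and 5.24 in the mutant, against 5.77 and 5.98 in wild type. AT1G28600, a GDSL-type lipase, had 5.49 and 5.48 in the mutant, against 6.16 and 6.03 in wild type. The mutant values of AT1G28600 were nearly identical, whereas those of AT3G59080 and AT3G02840 were spread more widely than their wild-type values. The other members were AT2G25735 and AT4G27654, described with the stress genes, and AT2G18690 (-0.72), AT1G19380 (-0.78), AT3G61390 (-0.69), AT1G25400 (-0.54) and AT2G18210 (-0.62).

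The 15 genes with the widest gap above wild type differed by 0.45 to 1.21, with adjusted p from 0.401 to 0.524. Against wild type replicate 1 alone they were at 0.40 to 1.02, and against wild type replicate 2 alone at 0.46 to 1.76. In 10 of these 15 both overexpressor arrays also lay above both wild-type arrays. First was AT5G35940, a jacalin-type lectin, a family of carbohydrate-binding proteins, with 8.74 and 8.83 in the mutant, 8.15 and 8.23 in the overexpressor, and 7.77 and 8.01 in wild type. Its difference was 0.90 ± 0.106 (adjusted p = 0.401), and it was called against either wild-type array alone, at 1.02 (adjusted p = 0.0332) and 0.78 (adjusted p = 0.0153). Against wild type replicate 1 alone 7 probe sets (0.0308%) were called, and against wild type replicate 2 alone 2743 (12.1%). Besides SGP1 and AT5G35940, the only other probe set called in the same direction against each wild-type array alone was 247949_at, which has no listed gene and was lower in the mutant. AT5G51520 and AT4G25250 encode proteins of the invertase and pectin methylesterase inhibitor family, which restrain pectin-modifying enzymes of the wall. AT5G51520 had 6.34 and 6.21 in the mutant, against 5.65 and 4.94 in wild type, and AT4G25250 had 9.44 and 9.55 in the mutant, against 9.01 and 8.80 in wild type. In AT5G51520 the wild-type arrays differed from each other more than the mutant arrays did.

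The chloroplast gene rpl16, for a protein of the chloroplast ribosome, had 8.46 and 8.52 in the mutant, 8.47 and 8.45 in the overexpressor, and 7.87 and 7.94 in wild type, with a difference of 0.59 ± 0.084. AT4G30330, a small nuclear ribonucleoprotein of the splicing machinery (0.47), AT1G20370, a pseudouridine synthase (0.47), and AT2G37420, a kinesin motor (0.45), were also among the 15. AT4G23590, of the tyrosine aminotransferase family, had 7.45 and 7.50 in the mutant, against 7.06 and 6.23 in wild type. Its difference was 0.42 against wild type replicate 1 and 1.24 against wild type replicate 2. AT4G19460, a glycosyltransferase gene, was at 0.53 and 0.93 in the same order, and AT1G05280 at 0.42 and 1.06. The remaining members were AT1G52070, described with the lectins, and AT2G17080 (0.67), AT4G14490 (0.55), AT3G44330 (0.49) and AT5G02590 (0.46). AT4G14490 was dim, at 4.38 and 4.53 in the mutant and 3.87 and 3.94 in wild type.

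**Figure D2:**
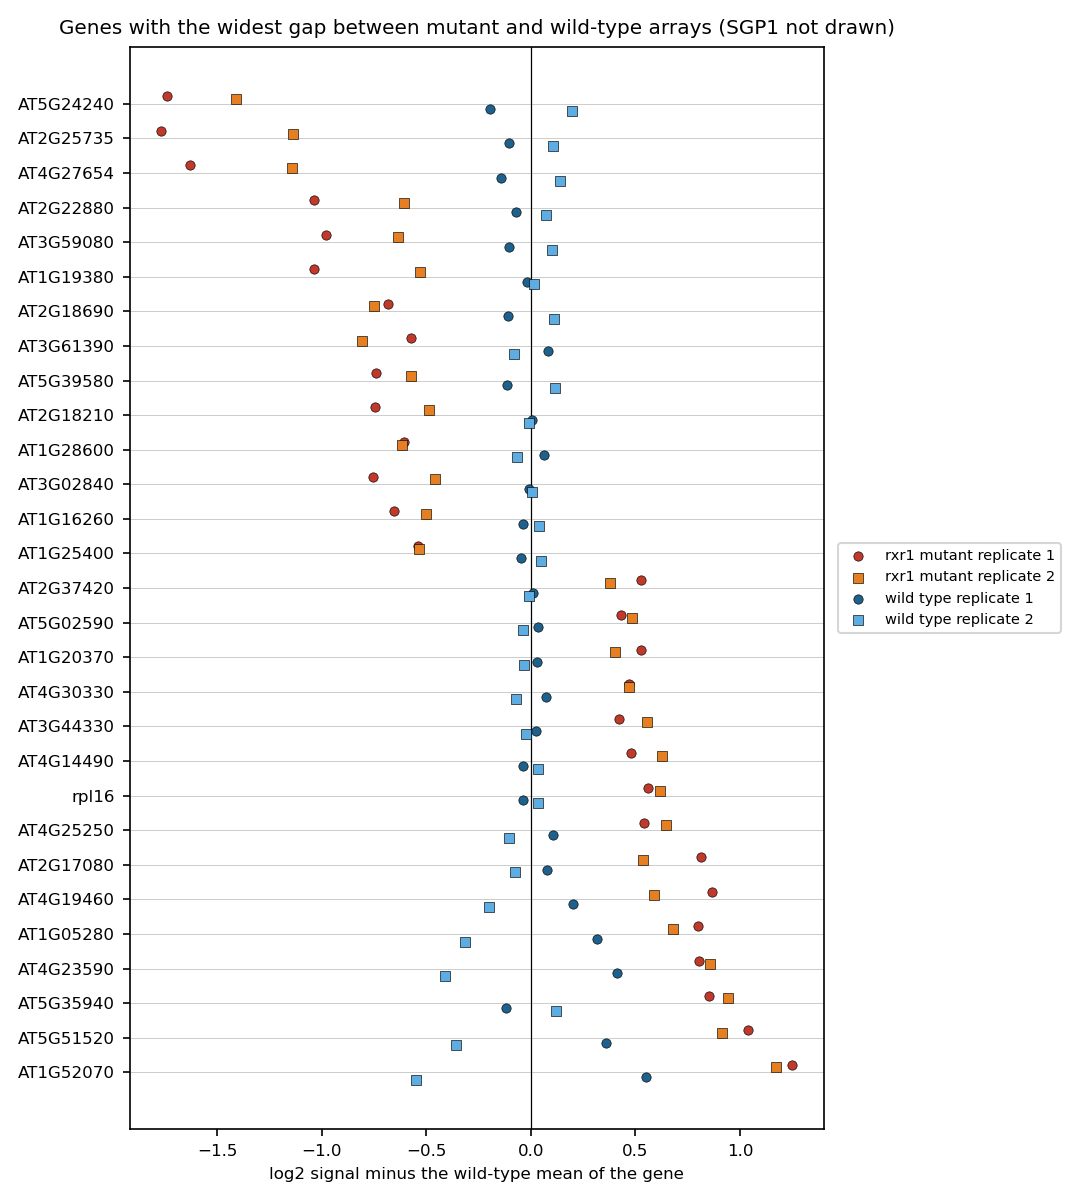
Log2 signal minus the wild-type mean for the named genes with the widest gap between mutant and wild-type arrays, SGP1 left out, sorted by difference. Each gene has 2 mutant and 2 wild-type points. Mutant and wild-type points do not overlap in any gene drawn, which is how the genes were chosen, and mutant replicate 1 lies further from wild type than replicate 2 in most of the lower genes.

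Large differences were few: 30 probe sets (0.132%) were at least 2-fold apart with no overlap of the arrays, 10 higher in the mutant (0.044%) and 20 lower (0.0879%). The higher and the lower sets depended on the wild-type arrays in different ways. Of the 10 higher probe sets, 10 were at least 2-fold above wild type replicate 2 alone and only 1 above wild type replicate 1 alone. Of the 20 lower probe sets, 16 were at least 2-fold below wild type replicate 1 and 15 below wild type replicate 2. In 19 of the 20 lower probe sets mutant replicate 1 had the lower mutant value.

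The 8 named genes of the higher set were singled out after their values had been seen. They differed by 1.04 to 1.51 from the wild-type mean, by 0.42 to 0.66 from wild type replicate 1 alone and by 1.64 to 2.40 from wild type replicate 2 alone. AT1G50060, a secreted protein of the CAP family, had 8.34 and 8.13 in the mutant, 7.43 and 7.76 in the overexpressor, and 7.62 and 5.84 in wild type. AT5G54370, annotated as related to late embryogenesis abundant and root cap proteins, had 10.59 and 10.37 in the mutant, 9.56 and 10.13 in the overexpressor, and 10.01 and 8.52 in wild type. In both genes wild type replicate 2 was the lowest of the 6 arrays. AT4G27400 (7.69 and 7.41 in the mutant, against 7.02 and 5.73 in wild type) and AT5G60530 (9.13 and 8.68 in the mutant, against 8.48 and 7.03 in wild type) also had their lowest value in wild type replicate 2, as did AT3G19430 (1.22) and AT1G23160 (1.20).

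The jacalin lectin genes AT1G52070 and AT1G52060 were in this group, and AT1G52050, also a jacalin lectin gene, was just under 2-fold. AT1G52070 had 10.86 and 10.79 in the mutant, 10.08 and 10.69 in the overexpressor, and 10.16 and 9.06 in wild type. AT1G52060 had 10.01 and 9.68 in the mutant, against 9.41 and 8.21 in wild type, and AT1G52050 had 9.04 and 8.85 in the mutant, against 8.63 and 7.34 in wild type. Their differences were 1.21 ± 0.341, 1.04 ± 0.41 and 0.96 ± 0.489, and against wild type replicate 1 alone 0.66, 0.44 and 0.32. Of 44 jacalin lectin loci, a list added after the values were seen, 21 were measured. Of these, 12 were higher and 9 lower, with a median of 0.05 and 0 called. The median was 0.08 against wild type replicate 1 and 0.03 against wild type replicate 2.

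**Figure D3:**
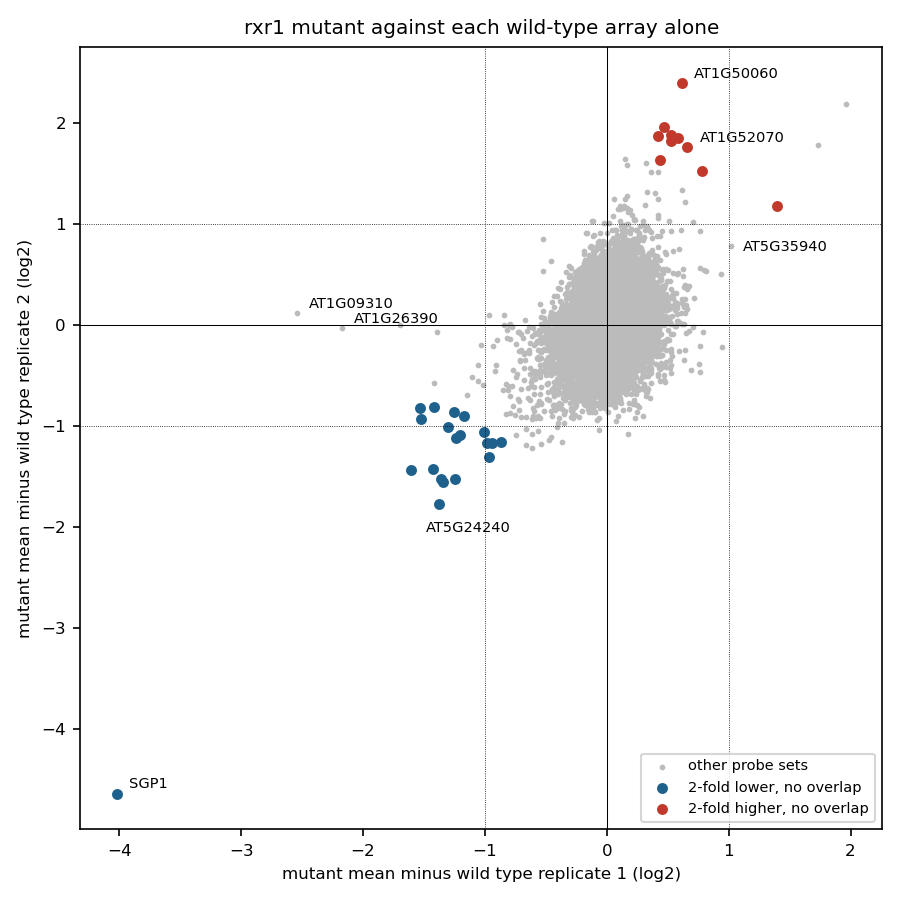
Mutant mean minus wild type replicate 1 (horizontal axis) and minus wild type replicate 2 (vertical axis), log2, 1 point per probe set. Coloured points are the 30 probe sets that were at least 2-fold apart with no overlap of arrays. The higher ones lie mostly beyond 1 on the vertical axis alone, the lower ones lie near or beyond -1 on both axes, and SGP1 lies far below the rest on both.

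Genes that respond within minutes to touch, wounding and elicitors were the list with the lowest median in the mutant. Of 47 listed genes 13 were measured. This list, like the others, was chosen with earlier results of these data known, so the shares below describe it and test nothing. All 13 had a lower mean in the mutant, against 51.6% of all probe sets, 11 lay below wild type with no overlap, against 19% of all probe sets, and 0 were called. The median difference was -0.78, against -0.005 over all probe sets. It was -0.74 against wild type replicate 1 and -0.90 against wild type replicate 2, so it did not rest on the wild-type array that stood apart. It did depend on the mutant array: relative to the wild-type mean, the median was -0.87 in mutant replicate 1 and -0.48 in mutant replicate 2. It was -0.35 and 0.18 in the overexpressor arrays.

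STZ, a zinc-finger repressor of stress responses, had 6.42 and 7.95 in the mutant, 8.67 and 9.13 in the overexpressor, and 8.42 and 8.31 in wild type. Its mutant arrays differed from each other by more than mutant replicate 2 differed from wild type. CML38, a calmodulin-like calcium sensor, had 4.05 and 4.79 in the mutant, 5.53 and 6.42 in the overexpressor, and 5.37 and 5.59 in wild type. CML37, its close relative, had 3.20 and 3.42 in the mutant, against 4.03 and 4.06 in wild type. Whether CML37 signals this low exceed background is unknown. In both calcium sensors the mutant arrays lay below wild type, with gaps of -0.58 and -0.61. WRKY53, a transcription factor of defence and leaf ageing, had 5.24 and 5.37 in the mutant, against 5.92 and 6.24 in wild type. PUB22 and PUB23, ubiquitin ligases that dampen immune responses, were at -0.40 ± 0.114 and -0.54 ± 0.174, while PUB24 was at -0.23 and WRKY6 at -0.04, both with overlapping arrays. Of genes with no assigned role here, AT2G25735 had 4.60 and 5.23 in the mutant, against 6.26 and 6.47 in wild type, AT4G27654 had 5.21 and 5.70, against 6.70 and 6.98, and AT4G29780 had 6.02 and 6.95, against 7.91 and 7.91. AT3G10930 (-1.04) and AT4G27280 (-0.61) completed the list.

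**Figure D4:**
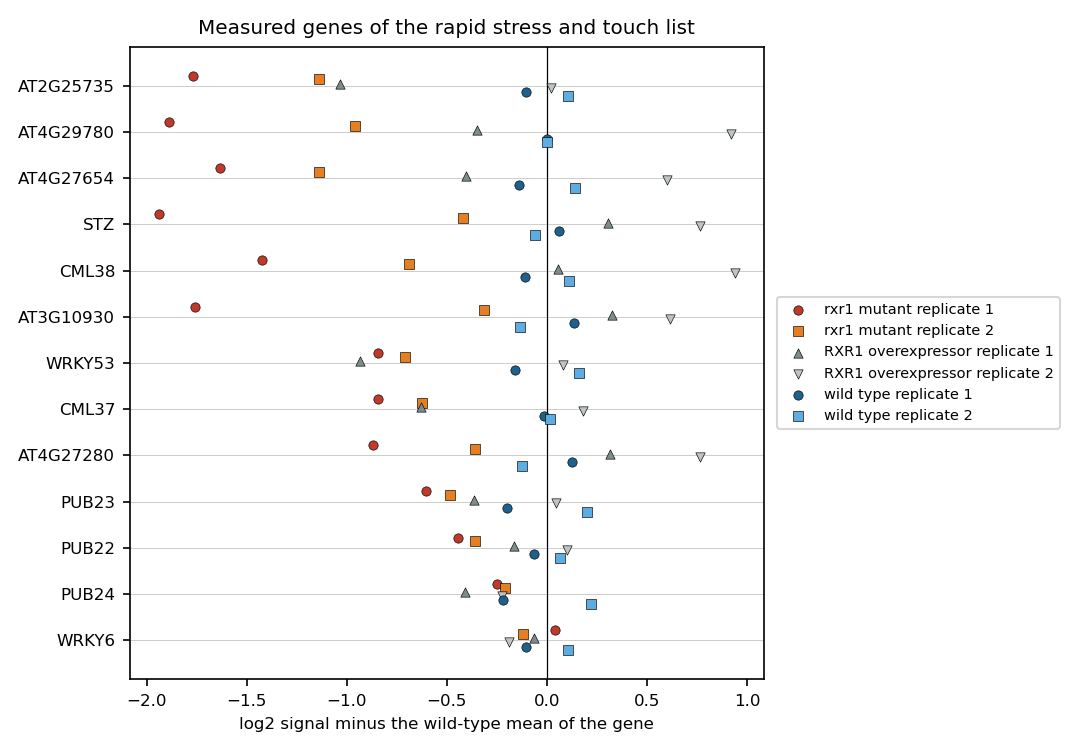
Log2 signal minus the wild-type mean for the 13 measured genes of the rapid stress and touch list, sorted by difference, 1 point per array (2 each of mutant, overexpressor and wild type). Mutant replicate 1 is the lowest array in most genes and mutant replicate 2 lies between it and wild type, while the overexpressor arrays fall on both sides of wild type.

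Other signalling lists contained these same genes and otherwise showed small values. Of 8 measured calmodulin-like genes, 5 were lower and 3 higher (median -0.065), with CML38 and CML37 the lowest. The sign of that median depended on the wild-type array: it was 0.077, with 2 of 8 lower, against wild type replicate 1, and -0.28, with 6 of 8 lower, against wild type replicate 2. Of 7 measured WRKY genes, 5 were lower (median -0.08), led by WRKY53, and the median was -0.041 and -0.15 against wild type replicates 1 and 2.

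The DUF506 relatives of RXR1 had lower means in 6 of 6 measured members of 13 listed, against 51.6% of all probe sets, with a median of -0.40 and 0 called. The median was -0.26 against wild type replicate 1, with 6 of 6 lower, and -0.48 against wild type replicate 2, with 5 of 6 lower, so its size depended on the wild-type array. AT2G39650 had 6.72 and 6.81 in the mutant, against 7.18 and 7.41 in wild type, and its arrays did not overlap. AT3G07350 had 7.40 and 7.72 in the mutant, against 8.10 and 7.83 in wild type, a gap of -0.11. Relative to the wild-type mean the family's median was -0.57 in mutant replicate 1 and -0.20 in mutant replicate 2, and the overexpressor arrays were at -0.32 and -0.18.

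Root hair genes were sparsely measured. The epidermal expansins EXPA7 and EXPA18, which loosen the wall of growing root hairs, were the 2 of 6 root hair markers with a named probe set. EXPA7 had 8.17 and 8.29 in the mutant, 7.58 and 7.71 in the overexpressor, and 8.42 and 8.40 in wild type. EXPA18 had 8.59 and 8.87 in the mutant, 7.93 and 8.15 in the overexpressor, and 8.70 and 8.82 in wild type. The mutant overlapped wild type in EXPA18 and lay below it, with a gap of -0.11, in EXPA7. Because the RNA came from whole roots, fewer cells of a type and less RNA per cell cannot be told apart.

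Among all 19 measured expansins, 9 were higher and 10 lower (median -0.0045, 0 called), and the median was -0.023 and 0.024 against wild type replicates 1 and 2. EXLA3, an expansin-like protein, had 5.23 and 6.08 in the mutant, against 7.07 and 6.46 in wild type. EXPA9 had 8.97 and 8.71 in the mutant, against 8.51 and 7.87 in wild type. Xyloglucan transglycosylases, which cut and rejoin the hemicellulose of the wall, were lower in 8 of 10 measured members, 5 of them with no overlap (median -0.22, 0 called), where 51.6% of all probe sets were lower and 19% lower with no overlap. The median was -0.18 against wild type replicate 1 and -0.23 against wild type replicate 2. Relative to the wild-type mean, it was -0.25 and -0.22 in the mutant arrays and -0.18 and -0.13 in the overexpressor arrays. XTH26, known from root hairs, had 6.20 and 5.98 in the mutant, 5.11 and 5.12 in the overexpressor, and 6.47 and 6.44 in wild type. XTH33 differed by -0.43 ± 0.125 and XTH18 by -0.38 ± 0.115.

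Class III peroxidases, secreted enzymes that stiffen or loosen walls and help lay down lignin and suberin, were lower in 39 of 55 measured members of 73 listed (median -0.12, 0 called). No overlap was found in 17 lower members (30.9%) and 8 higher members (14.5%), against 19% and 19.1% of all probe sets. This list by locus was added after the values were seen. The median was -0.055 against wild type replicate 1 and -0.17 against wild type replicate 2. Relative to the wild-type mean, it was -0.14 and -0.10 in the mutant arrays and -0.22 and -0.15 in the overexpressor arrays. AT5G64120 had 7.90 and 8.02 in the mutant, 7.38 and 7.46 in the overexpressor, and 8.46 and 8.45 in wild type. Its difference of -0.50 ± 0.0888 was thus nearly equal against either wild-type array. AT5G19890 had 4.32 and 4.10 in the mutant, against 4.68 and 4.96 in wild type, and whether signals this low exceed background is unknown. AT2G43480, at the other end, had 6.86 and 6.62 in the mutant, against 6.46 and 5.75 in wild type.

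Nuclear genes of the photosystems were lower in 7 of 7 measured members of 52 listed, 6 of them with no overlap (median -0.30, 0 called), where 51.6% of all probe sets were lower and 19% lower with no overlap. The values held against either wild-type array, with medians of -0.34 and -0.21. Relative to the wild-type mean, the median was -0.36 and -0.13 in the mutant arrays and -0.37 and -0.56 in the overexpressor arrays. The lower values were thus not particular to the mutant. PSBY, a small subunit of photosystem II, had 7.09 and 7.26 in the mutant, against 7.58 and 7.57 in wild type. PSAE-1, a subunit of photosystem I, had 6.62 and 6.66 in the mutant, against 7.04 and 6.86 in wild type. Of 21 shoot markers 3 were measured, light-harvesting genes that are also in the photosystem list; their summed intensity was 529 and 597 in the mutant and 665 and 620 in wild type. The part of shoot tissue in the harvested roots was not tested.

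Chloroplast-encoded genes, a list added after the values were seen, were measured more fully, at 69 of 84 loci. They were higher in 51, a direction found in 48.4% of all probe sets, and lower in 18, with a median of 0.10 and 0 called, and 25 (36.2%) lay above wild type with no overlap, against 19.1% of all probe sets, and 2 lay below. The median was 0.13 against wild type replicate 1 and 0.059 against wild type replicate 2. Besides rpl16, the polymerase subunit gene rpoC1 had 6.90 and 7.17 in the mutant, against 6.36 and 6.65 in wild type. The overexpressor medians were 0.24 and 0.09 relative to the same wild-type mean.

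Transporters of nitrate, peptides and sugars were lower in 21 of 27 measured members, with 14 (51.9%, against 19% of all probe sets) below wild type without overlap and 0 above (median -0.16, 0 called). The median was -0.16 against wild type replicate 1 and -0.14 against wild type replicate 2. GTR1, a glucosinolate transporter, had 7.56 and 7.73 in the mutant, against 8.01 and 8.06 in wild type. The sugar transporters SWEET17 and SWEET3 differed by -0.41 ± 0.144 and -0.40 ± 0.126. UDP-glycosyltransferases, which attach sugars to hormones and secondary metabolites, were lower in 37 of 51 measured members, with a median of -0.07. Of all probe sets 51.6% were lower. Without overlap, 8 members (15.7%) lay below wild type and 2 (3.92%) above, against 19% and 19.1% of all probe sets. Against wild type replicate 1 alone 26 of 51 were lower (median -0.0063), and against wild type replicate 2 alone 32 of 51 (median -0.095), so the count depended on the wild-type arrays. UGT76D1 had 6.06 and 5.97 in the mutant, against 6.50 and 6.59 in wild type.

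Histone genes, high in dividing tissue, were higher in 6 of 7 measured members (median 0.18, 0 called), a direction found in 48.4% of all probe sets. The median was 0.06 against wild type replicate 1 (3 of 7 lower) and 0.29 against wild type replicate 2 (1 of 7 lower). Relative to the wild-type mean, it was 0.17 and 0.19 in the mutant arrays and 0.22 and 0.25 in the overexpressor arrays. Wild type replicates 1 and 2 stood at 0.18 and -0.18. The higher values were thus not particular to the mutant. HTR12, the centromeric histone H3, had 6.39 and 6.27 in the mutant, against 5.98 and 5.62 in wild type. Of 4 measured genes of iron deficiency, BHLH101, a transcription factor of iron uptake, had 5.57 and 5.94 in the mutant, against 6.18 and 6.59 in wild type. The other members of that list differed by -0.12 to -0.02, with overlapping arrays.

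**Figure D5:**
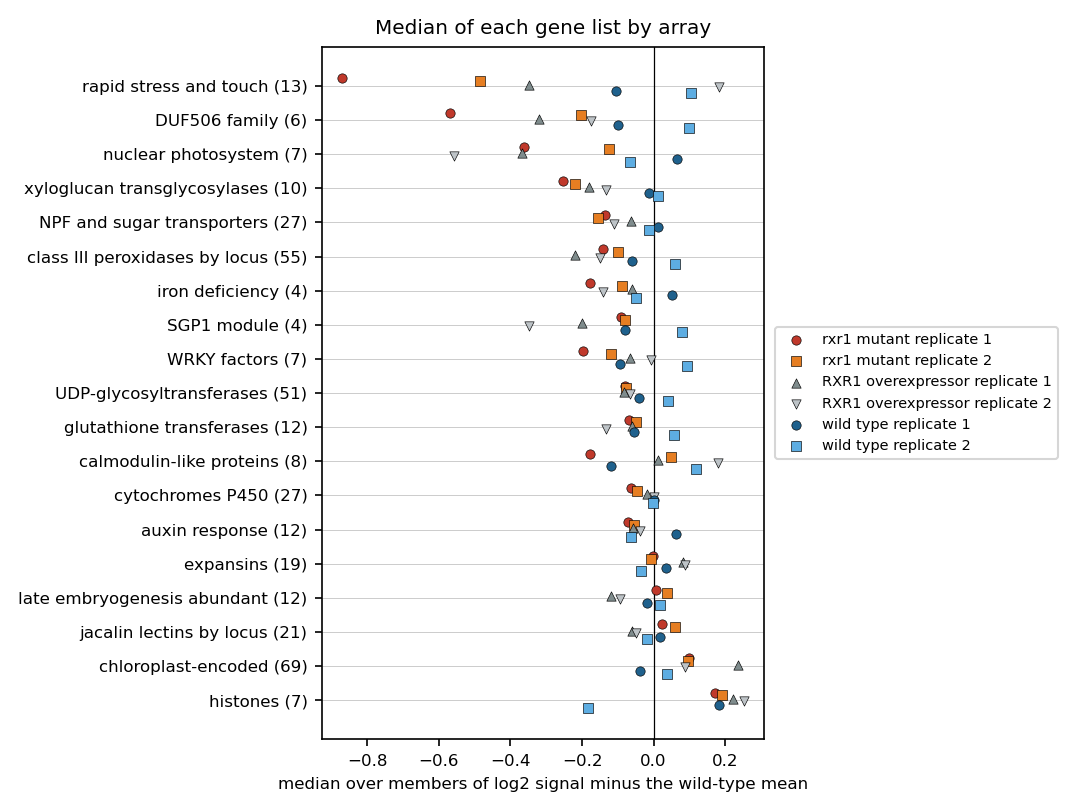
Median over the measured members of each gene list (number in brackets) of the log2 signal minus the wild-type mean, 1 point per array. The rapid stress list lies lowest, at -0.87 and -0.48 in the mutant arrays. For histones wild type replicate 2 lies apart from the other 5 arrays.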

How the data were processed

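Root RNA was measured on 6 ATH1 arrays, 2 per genotype. The deposited intensity values are RMA signals on a linear scale; per the submitters' processing notes they were made with RMA and Affymetrix Expression Console, whose versions are not stated. The authors also deposited a correlation score for each pair of arrays. Arrays have no read depth; precision is limited by their number. Log2 was taken with no pseudocount. After 64 controls were left out, 22746 probe sets were fitted in R 4.3.3 by limma 3.58.1 (lmFit, then eBayes, two-sided), with all 6 arrays giving 3 residual degrees of freedom to which the prior added 4.25. With 2 arrays a side, the smallest p of an exact permutation test is 0.333. The fit was tested on simulated data.

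The platform annotation, updated through TAIR10.1 names, listed 1 gene for 13513 probe sets, several for 503 and none for 8730, which stayed unnamed. Positions are not given, since no build is stated. The brightest probe set stood for a locus. Genes were named by rule: all called genes, the 15 per direction with the widest gap at unadjusted p under 0.01, up to 4 members per list by size of difference, and neighbours. Others named were chosen after their values were seen. The members and lists were chosen with earlier results of these data known. Of 38 lists, those with no measured named member (14) are not described. 3 lists (peroxidases and jacalins by locus, chloroplast genes) were added after the values were seen, and 5 wrong name matches were removed. Pooled-spread fits with 1 wild-type array assume that it varies like the other arrays. The replicate SD was 0.191 in wild type, against 0.114 in the mutant and 0.101 in the overexpressor. Wild type thus varied more, and the adjusted p of such fits can be too small.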

Additional observations from a re-analysis of the deposited data

How the results depend on the processing

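With 2 arrays a side, counts of calls followed single arrays. Against 1 called probe set, dropping single arrays gave 0 to 2743, the highest when wild type replicate 2 was the lone control and 7 when wild type replicate 1 was. Using only the 4 arrays compared gave 0 called, with SGP1 at -4.33, adding 32 intensity units gave 0, with SGP1 at -3.39, and the replicate block gave 2, SGP1 and AT5G24240 (-1.58, adjusted p = 0.00629). The deviations of same-numbered arrays correlated at 0.32 between mutant and wild type, 0.125 between mutant and overexpressor and 0.05 between overexpressor and wild type, so not every pair was over 0.1 and the numbers were not taken as pairs, although the labels do not say whether same-numbered samples were grown together. Leaving out arrays moved SGP1 between -4.67 and -3.99. The count at p under 0.05 before adjustment was 1346 with the 4 arrays, 1323 with a minimum mean signal of 6, which tests fewer, and 985 to 6470 with arrays left out, against 2122. Adding 32 units turned its split of 1136 higher and 986 lower into 1302 and 866, centring on array medians into 965 and 1161. The 30 probe sets at least 2-fold apart became 24 to 78 with arrays left out and 12 after adding 32 units, which shrinks dim differences. The block, trended variances and array weights cannot change that last count.
Of 80 genes named, 6 changed sign with single arrays left out, all at differences that were never called in the full comparison: AT1G09310 (-2.54 to 0.12), AT5G54850 (-0.0113 to 0.0675), EXPA18 (-0.17 to 0.11), MOB1-like (-0.0593 to 0.0277), SGP2 (-0.0875 to 0.0265) and WRKY6 (-0.145 to 0.0678). Of 21 list medians, 4 changed sign under at least 1 alternative (calmodulin-like proteins, expansins, late embryogenesis abundant genes and the list of jacalins by symbol), and 36 of 314 list values moved beyond the replicate SD. None of the 30 genes with the widest gap changed sign under the 15 alternatives. Their choice by gap fixed this in advance for every fit with a single array left out, so it is no sign of stability.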

Other observations

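Some signals were set by 1 array. Probe set 249082_at, with no listed gene, had 3.89 and 8.21 in the mutant arrays, 4.03 and 3.98 in the overexpressor, and 4.09 and 3.87 in wild type. A second unnamed probe set, 253767_at, had 4.97 and 8.50 in the mutant arrays, against 5.004 and 4.956 in wild type. Both were thus high only in mutant replicate 2 among the 6 arrays. In wild type replicate 1 alone, AT1G09310, a DUF538 protein, was high: it had 4.11 and 4.45 in the mutant arrays, against 6.82 and 4.16 in wild type. AT1G26390, of the berberine-bridge enzyme family, had 3.36 and 3.59 in the mutant, against 5.65 and 3.51 in wild type. Either gene would be called against wild type replicate 1 alone, at -2.54 (adjusted p = 0.00456) and -2.17 (adjusted p = 0.00456), and neither differed from wild type replicate 2 by more than 0.12.

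Among unnamed probe sets the widest gaps below wild type were at 261892_at (5.08 and 5.37 in the mutant, against 6.58 and 6.75 in wild type) and 245757_at (4.74 and 4.82, against 5.98 and 5.87). The widest above were at 258586_s_at (7.94 and 7.96, against 7.17 and 6.42), which matches several genes, and 246585_at (7.65 and 7.55, against 6.96 and 6.38).

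Further lists had medians of small size and 0 called: glutathione transferases (12 measured, -0.07), cytochromes P450 (27 measured, -0.06), auxin response (12 measured, -0.04) and late embryogenesis abundant genes (12 measured, 0.01). Lists with 1 or 2 measured members were RAB GTPases (2 measured, median 0.03), ROP GTPases and regulators (1 measured, 0.0076), root hair regulators (1 measured, -0.011) and nitrate uptake and assimilation (1 measured, -0.14). The list of jacalins by symbol had 4 measured members and a median of -0.012, and that of peroxidases by symbol 7 and -0.16.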
